A study of Mus musculus with 4 samples.

Results

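Glycolysis and the response to low oxygen were followed through 41 genes in fibroblast-type cells of mouse pancreatic cancer. They encode the enzymes from hexokinase to lactate dehydrogenase, the carriers of glucose and lactate, enzymes that set the direction of the flow, the subunits of the hypoxia-inducible factor (HIF), its oxygen sensors and genes known as its targets. The members were taken by symbol from the deposited table of 22609 genes, and all 41 were found. The table spells symbols in lower case (hk1, hk2, gpi1), and pkm2 and ero1l are named Pkm and Ero1a in RefSeq. The cells came from C57BL/6 mice with spontaneous pancreatic ductal adenocarcinoma and were sorted for FAP, a surface protease of tumour stroma. They were then divided by the surface sialomucin CD34, which marks some stromal, endothelial and progenitor cells, into 2 libraries of FAP+ CD34+ and 2 of FAP+ CD34- cells. The titles call them biological replicates, but no source used here gives the alleles that drive the tumour, any treatment, the age and number of the animals, or whether the fractions share animals. The p-values therefore measure the spread between these libraries only.

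Glycolysis turns glucose into pyruvate, and lactate dehydrogenase and lactate export let the flow go on when mitochondria do not take up the pyruvate. HIF is a pair of an oxygen-sensitive alpha subunit and a stable partner: prolyl hydroxylases mark the alpha subunit for destruction while oxygen is present, and without it the pair binds a short core motif near its targets, many of which are glycolytic genes. Most control of HIF acts on the protein, which was not measured here.

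Total counts were between 10322354 and 14633561 reads per library. Levels are CPM, counts scaled by the column total, and the log2 fold change is CD34+ over CD34-, from edgeR's quasi-likelihood test after TMM scaling, with p adjusted over all 13875 genes tested. Cd34 itself was 143 and 293 CPM in CD34+ replicates 1 and 2 and 18.3 and 23.9 CPM in CD34- replicates 1 and 2, and Fap was 79.0 and 39.8 against 142 and 136 CPM. The fibroblast list of 9 genes, led by Col1a2, summed to between 37098 and 41025 CPM in all 4 libraries, and 2 of the 9, Pdgfrb and Fap, were lower in CD34+ at an unadjusted p under 0.05 (edgeR). Some markers of other cells also differed between the fractions. By this measure 6.65% of all genes tested were lower and 9.81% higher. Of 9 pericyte markers 4 were lower by the same measure, namely Rgs5, Mcam, Ndufa4l2 and Higd1b, and another 3 had a positive log2 fold change. The 9 summed to 453 to 507 CPM in CD34+ and 633 to 738 CPM in CD34- libraries. Of 8 endothelial markers 5 were higher, with sums of 56.5 to 62.3 against 36.4 to 41.1 CPM, and of 8 myeloid markers 2 were higher, with sums of 153 to 233 against 88.2 to 140.4 CPM. The endothelial markers Emcn and Esam had a negative log2 fold change, and no myeloid marker did. Of 6 mesothelial markers 3 were higher (sums of 233 to 397 against 158 to 249 CPM), and of 6 epithelial markers 1 was (sums of 470 to 663 against 351 to 686 CPM). The sums of both lists overlapped between the groups, and 2 markers of each list had a negative log2 fold change. None of these markers was at 0 in any library, and the globin genes Hba-a1 and Hbb-b1 were at 0 throughout. Lymphoid markers summed to 2.64 to 21.4 against 0.615 to 1.13 CPM. Of the 21.4 CPM, in CD34+ replicate 1, Cd3e alone gave 19.0, and it was 0.293 CPM in CD34+ replicate 2. The part of these other cell types in the results that follow was not tested. In bulk RNA, fewer cells of a type and less RNA per cell cannot be told apart.

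Most of the 41 genes were lower in CD34+ than in CD34- cells. Glucose carriers, the lactate exporter gene Slc16a3, the enzyme genes Pgk1 and Pgam1 of lower glycolysis, the oxygen sensor genes Egln1 and Egln3 and the mitophagy gene Bnip3 had a CD34- mean between 2.48-fold and 5.81-fold the CD34+ mean in CPM. Hk2, Eno2 and Ndrg1 lay the other way, with a CD34+ mean between 2.09-fold and 3.11-fold the CD34- mean. Of the 40 members that passed the filter on low counts 31 had a negative log2 fold change and 9 a positive, which is 77.5% and 22.5% against 51.3% and 48.7% of all genes tested. Their median was -0.65, against -0.02 over all genes tested. The CPM of the groups did not overlap for 26 members that were lower and 5 that were higher in CD34+. Over all genes tested, 26.6% did not overlap and were lower and 23.4% did not overlap and were higher.

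At an adjusted p of 0.05 edgeR called 0 members higher and 0 lower, and 0 of all genes in each direction, a background of 0%. Without adjustment, 16 members were lower at p of 0.05, which is 40% of the 40 tested against 6.65% of all genes, and 3 were higher, which is 7.5% against 9.81% (edgeR). The 3 were Hk2, Eno2 and Ndrg1, with log2 fold changes of 1.65, 1.09 and 1.38. Without CD34+ replicate 1 these fell to 0.66, 0.51 and 0.83, so their size rests in part on that library. The members' median lay between -0.87 and -0.60 when 1 library was left out. DESeq2 called 10 members lower, where it called 1.3% of all genes lower, and 2 higher, where it called 2.85% higher. The 10 were Slc2a1, Slc2a3, Pgk1, Pgam1, Pdk1, Slc16a3, Bnip3, Egln1, Egln3 and Ero1l, and the 2 were Hk2 and Ndrg1. Without a filter on low counts edgeR called the same 10 members lower, where it called 0.653% of all genes lower, and 0 higher, where it called 0.924% higher. By limma on log2 RPKM + 1, 27 members were lower at an unadjusted p of 0.05, where 17.4% of all genes were, and 1 higher, where 2.75% were. On log2 RPKM + 0.1 the counts were 24 (13.9% of all genes) and 0 (4.83%), and on log2 FPKM + 1, with Eno1 included, 26 (16.9%) and 0 (2.14%). The median log2 fold change of all genes on these scales was -0.31, -0.42 and -0.31. With a block for the replicate number, edgeR gave 1 member lower, Slc2a3 (0.166% of all genes), and 0 higher (0.281%). In the rest of the text "lower" and "higher" describe levels, and each adjusted p is that of edgeR unless limma is named.

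**Figure D1:**
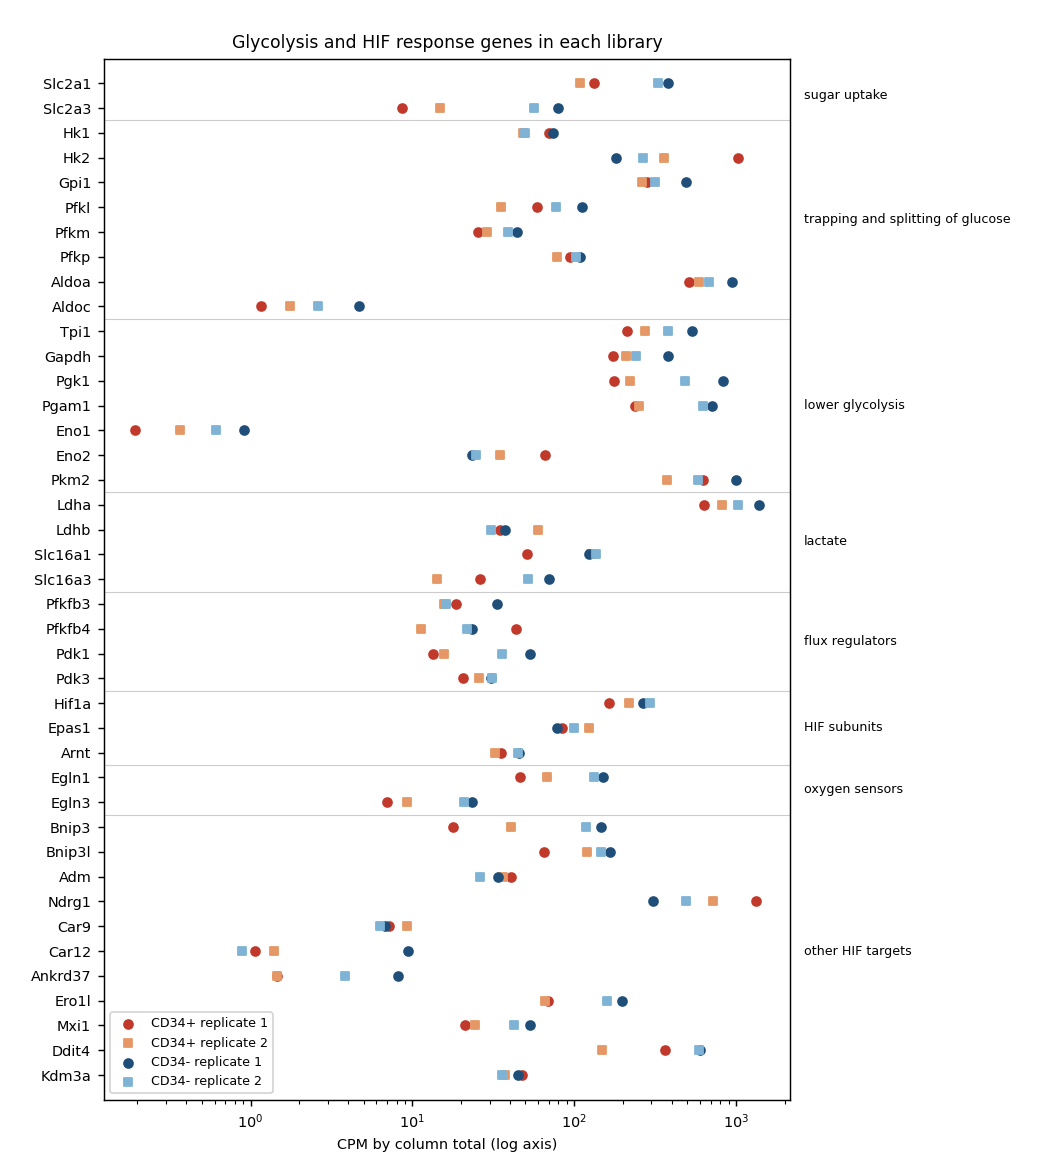
Level of each of the 41 genes in each library, as CPM by column total on a log axis, grouped by role. Points stand for single libraries (red and orange CD34+, blue CD34-). For 26 of the 40 tested genes both CD34+ points lie left of both CD34- points, and for Hk2, Eno2, Adm, Ndrg1 and Car9 they lie right of them.

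Promoters are shown for 5 members that were lower in CD34+ and for Hk2, which was higher, because the HIF core motif lies in them; many members had been listed as known HIF targets to begin with. The motif searched was ACGTG on either strand, read as CACGT on the other, and both readings overlap in the E-box CACGTG that Myc-type factors share. Only this form of the core was searched, so windows without a match can hold other forms, such as GCGTG. RefSeq windows of 300 bases, from 250 before to 50 after a start site in build GRCm38.p6, were found for 37 of the 41 members; the counts rest on mm9, another build. None was found for Slc2a3, Bnip3l, Ndrg1 and Epas1. At least 1 window held the motif for 24 of the 37 members (64.9%), against 28.6% of 9783 genes tested and 21.8% of all 27025 genes. By single window the shares were 51.9% of 54 for members and 24.5% of 12510 for genes tested, with median GC contents of 61.8% and 60.3%. Of the 15 members lower at an unadjusted p of 0.05 with a window 12 held it, as did 11 of 19 that did not pass and 1 of 2 that were higher. Capitals mark each match, and each sequence reads 5′ to 3′ along the gene.

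Slc2a1, the glucose carrier gene at chr4:119108495-119108794 (+ strand), held 1 match and Pgk1, at chrX:106186850-106187149 (+ strand), a pair. Slc16a3 at chr11:120948817-120949116 (+ strand) held a pair close to its start, and Bnip3 at chr7:138909457-138909756 (- strand) held 1 E-box. Ldha (its first window) at chr7:46845554-46845853 (+ strand) had the most, with 3 separate stretches, 2 of them E-boxes. Hk2 at chr6:82774405-82774704 (- strand), the member shown that was higher in CD34+, had 2.
Slc2a1: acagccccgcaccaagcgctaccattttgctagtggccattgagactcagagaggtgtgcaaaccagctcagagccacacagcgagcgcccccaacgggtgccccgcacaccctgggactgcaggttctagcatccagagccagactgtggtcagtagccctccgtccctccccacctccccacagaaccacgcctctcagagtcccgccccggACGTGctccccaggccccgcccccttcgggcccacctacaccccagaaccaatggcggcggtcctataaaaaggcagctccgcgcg
Pgk1: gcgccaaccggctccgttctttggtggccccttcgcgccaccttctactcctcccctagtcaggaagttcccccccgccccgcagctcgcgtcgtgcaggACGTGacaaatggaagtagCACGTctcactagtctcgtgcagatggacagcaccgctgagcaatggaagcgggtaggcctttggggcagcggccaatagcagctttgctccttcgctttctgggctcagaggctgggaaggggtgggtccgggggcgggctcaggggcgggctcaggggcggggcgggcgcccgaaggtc
Slc16a3: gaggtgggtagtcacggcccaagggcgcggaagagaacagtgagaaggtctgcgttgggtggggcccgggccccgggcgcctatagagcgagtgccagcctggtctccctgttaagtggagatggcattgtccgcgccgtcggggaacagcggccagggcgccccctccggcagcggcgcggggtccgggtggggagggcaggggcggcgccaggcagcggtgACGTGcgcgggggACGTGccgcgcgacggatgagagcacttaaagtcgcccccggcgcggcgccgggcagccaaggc
Bnip3: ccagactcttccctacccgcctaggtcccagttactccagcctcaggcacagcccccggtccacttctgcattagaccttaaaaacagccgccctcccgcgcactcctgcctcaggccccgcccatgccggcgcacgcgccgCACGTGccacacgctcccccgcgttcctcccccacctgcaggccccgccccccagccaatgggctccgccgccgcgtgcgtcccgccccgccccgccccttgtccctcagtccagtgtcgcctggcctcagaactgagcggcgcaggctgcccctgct
Ldha: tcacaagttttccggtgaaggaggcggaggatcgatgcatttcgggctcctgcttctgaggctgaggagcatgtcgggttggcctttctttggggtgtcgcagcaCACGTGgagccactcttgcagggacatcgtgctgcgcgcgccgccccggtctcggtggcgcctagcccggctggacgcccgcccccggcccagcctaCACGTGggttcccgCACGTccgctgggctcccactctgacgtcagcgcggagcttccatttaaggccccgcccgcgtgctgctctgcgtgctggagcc
Hk2: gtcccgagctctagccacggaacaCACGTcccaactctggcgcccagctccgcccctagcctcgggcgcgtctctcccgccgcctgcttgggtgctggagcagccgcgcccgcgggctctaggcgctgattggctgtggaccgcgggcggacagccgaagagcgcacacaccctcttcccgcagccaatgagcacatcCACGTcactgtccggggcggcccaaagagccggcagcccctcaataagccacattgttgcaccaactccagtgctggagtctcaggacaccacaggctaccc

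**Figure D2:**
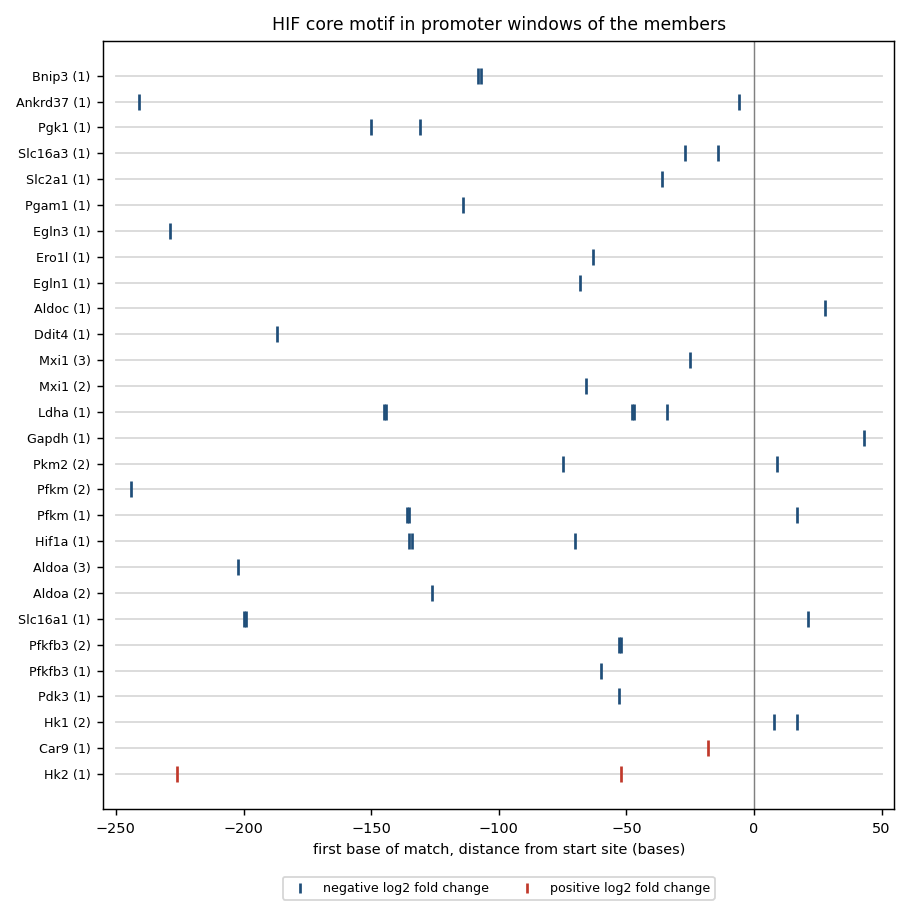
Distance in bases from the start site to the first base of each ACGTG or CACGT match, for the 28 windows of members that held one (number of the window in brackets), ordered by log2 fold change. Blue marks genes with a negative and red with a positive log2 fold change; matches lie throughout the window, and a match is no evidence of binding.

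By position, counted with -1 as the base before the start site, matches began at -36 in Slc2a1, at -150 and -131 in Pgk1, at -27 and -14 in Slc16a3 and at -226 and -52 in Hk2. In Bnip3 the E-box began at -108, and in Ldha the stretches began at -145, -48 and -34. Pdk1, Pfkl and Tpi1, which were lower at an unadjusted p of 0.05 (edgeR), had no match in their windows. This says only that ACGTG and CACGT are not in them. The form GCGTG, which was not searched, does occur in the first window of Pdk1 and in that of Pfkl.

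Glucose enters through the carriers encoded by Slc2a1 and Slc2a3, and both were lower in CD34+ cells. Slc2a3, the gene of a high-affinity carrier, was 8.62 and 14.8 CPM in CD34+ replicates 1 and 2 and 79.9 and 56.2 CPM in CD34- replicates 1 and 2. The CD34- mean was 5.81-fold the CD34+ mean, and its log2 fold change, -2.51 (SE 0.34, adjusted p = 0.155, edgeR), had the smallest p of all members. Slc2a1, the widespread basal carrier, whose promoter with 1 match is printed among the sequences, was 132 and 109 CPM in CD34+ and 380.0 and 328 CPM in CD34- replicates 1 and 2 (log2 fold change -1.53, SE 0.27, adjusted p = 0.171, edgeR). The groups stood well apart for both genes. By RPKM, which accounts for gene length, Slc2a1 was the more abundant of the pair in all 4 libraries, and Slc2a3 made up 4.06% and 8.11% of their sum in CD34+ and 12.0% and 10.0% in CD34- replicates 1 and 2.

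Hexokinase traps glucose in the cell, and here the members parted. Hk2, the inducible isoform, was 1030.3 and 361 CPM in CD34+ replicates 1 and 2, against 180.2 and 267 CPM in CD34- replicates 1 and 2. Both CD34+ libraries were above both others, but they differed 2.86-fold from each other. Its log2 fold change, 1.65 with all libraries (SE 0.56, adjusted p = 0.257, edgeR), was 0.66 without CD34+ replicate 1 and 2.20 without CD34+ replicate 2. Hk1, the constitutive isoform, overlapped between the groups, with 69.5 and 48.4 against 73.8 and 49.9 CPM (log2 fold change -0.04, SE 0.30). Hk2 was the main isoform by RPKM in every library, at 91.8% and 84.9% of the pair in CD34+ and 64.8% and 80.2% in CD34- replicates 1 and 2, and at 55.8% to 89.2% by FPKM.

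The next steps were lower in CD34+ by smaller margins. Gpi1, whose product turns glucose 6-phosphate into the fructose form, was 283 and 262 against 491 and 316 CPM. The 3 phosphofructokinase genes, which commit sugar to glycolysis, were all lower without overlap. For the liver-type Pfkl the levels were 59.3 and 35.5 against 112 and 77.0 CPM (log2 fold change -0.96, SE 0.34, adjusted p = 0.265, edgeR), and for the muscle-type Pfkm 25.6 and 28.9 against 44.6 and 39.3 CPM (-0.60, SE 0.23, adjusted p = 0.285). The platelet-type Pfkp differed least, with 94.2 and 78.3 against 109 and 103 CPM, and made up 48.8% and 50.1% of the family's RPKM in CD34+ and 37.5% and 42.9% in CD34- replicates 1 and 2. Aldolase, which splits the sugar, came almost wholly from Aldoa, since Aldoc held at most 0.462% of the RPKM of the pair in any library. Aldoa was 513 and 588 against 942 and 685 CPM (log2 fold change -0.54, SE 0.30), and Aldoc was between 1.16 and 4.69 CPM.

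Among the tested enzyme genes after the split, Pgk1 and Pgam1 had the largest fold changes in the counts. Pgk1, which makes ATP from bisphosphoglycerate, was 175 and 220.4 CPM in CD34+ and 831 and 485 CPM in CD34- replicates 1 and 2 (log2 fold change -1.70, SE 0.34, adjusted p = 0.173, edgeR). Pgam1, the mutase of the following step, was 238 and 252 against 707 and 626 CPM (-1.42, SE 0.27, adjusted p = 0.173, edgeR). The 2 CD34+ libraries were close to each other for both genes, and Pgk1 differed 1.71-fold between the CD34- libraries. Tpi1, which interconverts the triose phosphates, was 213 and 274 against 534 and 381 CPM (-0.89, SE 0.30, adjusted p = 0.253). Gapdh, often used as a constant reference, was 173 and 208 against 379 and 239.7 CPM (-0.67, SE 0.30, adjusted p = 0.329). Pkm2, the pyruvate kinase gene, overlapped between the groups with 627 and 373 against 1004 and 585 CPM.

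Enolase, the step before pyruvate kinase, differed between the deposited scales. The count table lists 2 and 5 reads of Eno1 in CD34+ and 12 and 9 in CD34- replicates 1 and 2, so that Eno1 alone among the members did not pass the filter. In the deposited bias-adjusted FPKM, Eno1 was 28.8 and 44.9 in CD34+ and 203 and 191 FPKM in CD34- replicates 1 and 2. Gm5506, now named Eno1b in RefSeq, which also lists Eno1 among its synonyms, was 67.3 and 118 against 345 and 225 FPKM with at most 306 reads in the count table; it is no member and was looked at after the values of Eno1 were seen. How far reads that fit both genes were dropped or divided was not tested, so the level of Eno1 is uncertain on either scale. By limma on log2 FPKM + 1 the log2 fold change of Eno1 was -2.42 (SE 0.28, adjusted p = 0.231), where the median of all genes on that scale was -0.31. Gapdh also had a mean of 155 RPKM but 1019 FPKM, a ratio of 6.57 against a median of 0.90 over 6807 genes. Eno2, the neuronal-type enolase, was 66.1 and 34.7 CPM in CD34+ and 23.4 and 24.7 CPM in CD34- replicates 1 and 2 (log2 fold change 1.09, SE 0.36, adjusted p = 0.253, edgeR). It was the higher of the enolase pair by RPKM, but by FPKM it held 27.2% and 14.8% of the pair in CD34+ and 2.91% and 3.23% in CD34- replicates 1 and 2. Without CD34+ replicate 1 its log2 fold change was 0.51.

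**Figure D3:**
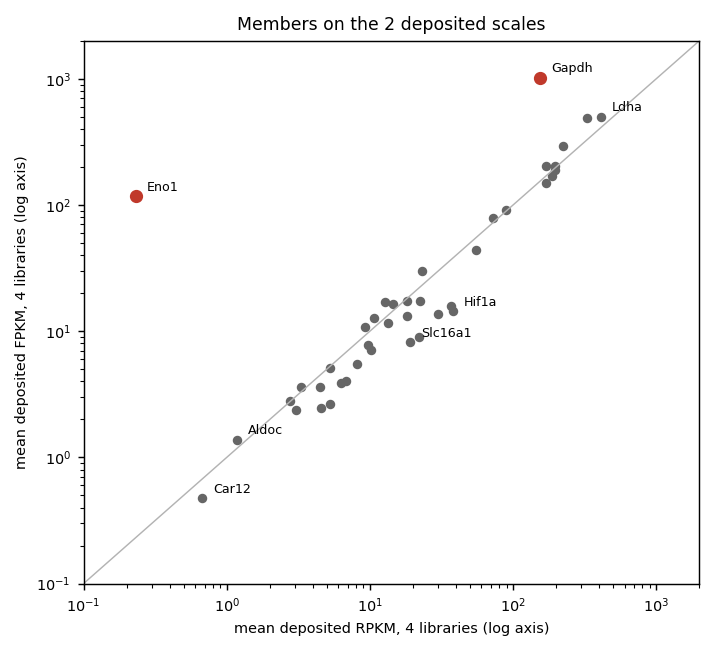
Mean of the 4 libraries for each of the 41 genes on both deposited scales, RPKM from read counts (x) and bias-adjusted FPKM (y), with log axes and a line of equality. Eno1, at 0.232 RPKM and 117 FPKM, and Gapdh, at 155 RPKM and 1019 FPKM, lie far above the line.

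The summed level of the 17 genes from hexokinase to lactate dehydrogenase was 4236 and 3642 CPM in CD34+ and 6868 and 4935 CPM in CD34- replicates 1 and 2. The groups did not overlap, and the CD34- mean was 1.50-fold the CD34+ mean. Without Hk2 the sums were 3206 and 3281 against 6688 and 4668 CPM, a ratio of 1.75. Those CD34+ sums lay closer together than the sums with Hk2. By FPKM, where the median log2 fold change of all genes was -0.31, the 17 genes summed to 1511 and 2203 against 5050.2 and 4052 FPKM, a ratio of 2.45. That ratio was 2.39 without Eno1 and 2.39 without Eno1 and Gapdh. With 2 libraries against 2 an exact permutation test of such a sum cannot give a p below 1 in 3, and none was run.

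Pyruvate is reduced to lactate by the products of Ldha and Ldhb and lactate leaves through the carriers encoded by Slc16a1 and Slc16a3. Slc16a3, the carrier gene of glycolytic cells, was 26.4 and 14.2 CPM in CD34+ and 69.9 and 51.9 CPM in CD34- replicates 1 and 2 (log2 fold change -1.56, SE 0.36, adjusted p = 0.181, edgeR). Slc16a1 overlapped between the groups, with CD34+ replicate 2 among the CD34- libraries, at 51.1 and 127 against 123 and 136 CPM. Ldha was 634 and 816 against 1393 and 1023 CPM (log2 fold change -0.71, SE 0.32), and Ldhb, whose subunit favours the reverse reaction, was 34.8 and 59.7 against 37.4 and 30.5 CPM and overlapped. Ldhb made up 7.17% and 9.34% of the RPKM of the pair in CD34+ and 3.64% and 4.03% in CD34- replicates 1 and 2, a share that did not overlap. By RPKM Ldha was the most abundant of the 41 genes in 3 libraries and came after Ndrg1 in CD34+ replicate 1; by FPKM Gapdh was first in all 4.

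Pyruvate dehydrogenase kinases inhibit pyruvate dehydrogenase, the mitochondrial enzyme that passes pyruvate on to oxidation. The bifunctional Pfkfb enzymes set the level of the main activator of phosphofructokinase. Pdk1 was 13.5 and 15.8 CPM in CD34+ and 53.3 and 36.0 CPM in CD34- replicates 1 and 2 (log2 fold change -1.58, SE 0.28, adjusted p = 0.171, edgeR). Pdk3 differed less, with 20.4 and 25.7 against 30.6 and 31.2 CPM, and Pdk1 made up 20.4% and 19.3% of the RPKM of the pair in CD34+ against 40.5% and 31.0%. Pfkfb3 was between 15.8 and 33.4 CPM and Pfkfb4 between 11.4 and 44.0 CPM, and both overlapped between the groups. The highest and lowest level of Pfkfb4 were both in CD34+ libraries, a 3.87-fold difference that was the largest within either fraction among the 37 members with a mean of at least 5 CPM over the 4 libraries.

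**Figure D4:**
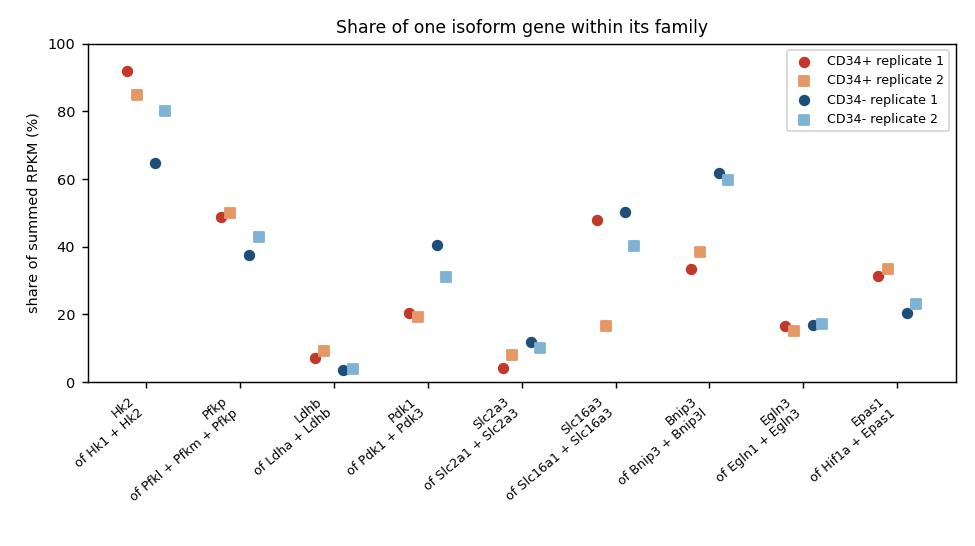
Share of one gene in the summed RPKM of its family, in percent, for 9 families; points stand for single libraries. The 4 points separate by fraction for Hk2, Pfkp, Ldhb, Pdk1, Slc2a3, Bnip3, Epas1 and, by a narrow margin, Egln3 (16.5% and 15.2% against 16.8% and 17.1%), and those of Slc16a3 overlap between 16.6% and 50.3%.

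The HIF subunits had log2 fold changes between -0.54 and 0.23. Hif1a, the broadly expressed alpha subunit, was 165 and 219 CPM in CD34+ and 268 and 295 CPM in CD34- replicates 1 and 2 (log2 fold change -0.54, SE 0.28, adjusted p = 0.383, edgeR). Epas1, the second alpha subunit, overlapped with 84.7 and 123 against 77.9 and 100.3 CPM (0.23, SE 0.30, adjusted p = 0.724), and Arnt, the shared partner, was 35.5 and 32.3 against 45.9 and 45.0 CPM (-0.41, SE 0.23, adjusted p = 0.416). By RPKM Epas1 made up 31.4% and 33.4% of the alpha subunits in CD34+ and 20.5% and 23.2% in CD34- replicates 1 and 2. By FPKM the same share was 47.3% and 50.3% against 36.9% and 45.3%.

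Both oxygen sensor genes were lower in CD34+ cells. Egln1, the main prolyl hydroxylase of HIF, was 46.6 and 68.4 CPM in CD34+ and 152 and 133 CPM in CD34- replicates 1 and 2 (log2 fold change -1.29, SE 0.27, adjusted p = 0.173, edgeR). Egln3, a sensor that is itself a HIF target, was 6.98 and 9.30 against 23.2 and 20.8 CPM (-1.41, SE 0.30, adjusted p = 0.173, edgeR). The share of Egln3 in the RPKM of the pair lay between 15.2% and 17.1% in the 4 libraries.

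Other genes known as HIF targets split by direction. Bnip3, a receptor for the removal of mitochondria with the E-box in its promoter, was 17.9 and 40.9 CPM in CD34+ and 146 and 118 CPM in CD34- replicates 1 and 2 (log2 fold change -2.14, SE 0.41, adjusted p = 0.173, edgeR), and its relative Bnip3l was 65.6 and 121 against 166 and 146 CPM (-0.73, SE 0.33, adjusted p = 0.336). For Bnip3l the log2 fold change was -0.38 without CD34+ replicate 1 and -1.23 without CD34+ replicate 2. Bnip3 held 33.5% and 38.4% of the RPKM of the pair in CD34+ and 61.8% and 59.8% in CD34- replicates 1 and 2. Ero1l, an oxidase of protein folding in the endoplasmic reticulum, was 69.1 and 65.6 against 199 and 160.2 CPM (-1.39, SE 0.24, adjusted p = 0.171, edgeR). Mxi1, an antagonist of Myc, was 21.2 and 24.3 against 53.0 and 42.3 CPM (-1.04, SE 0.24, adjusted p = 0.178). Ddit4, an inhibitor of mTOR signalling, was 362 and 149.5 against 604 and 594 CPM (-1.20, SE 0.46, adjusted p = 0.287), and its log2 fold change was -2.01 without CD34+ replicate 1 and -0.71 without CD34+ replicate 2. Ankrd37 was low throughout, at 1.45 and 1.47 against 8.17 and 3.83 CPM (-1.99, SE 0.54, adjusted p = 0.215).

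Ndrg1, a stress-induced gene also known as a HIF target, went the other way. It was 1339 and 726 CPM in CD34+ and 308 and 491 CPM in CD34- replicates 1 and 2 (log2 fold change 1.38, SE 0.46, adjusted p = 0.250, edgeR), and 0.83 without CD34+ replicate 1. Adm, encoding the vasodilator peptide adrenomedullin, was 40.6 and 36.4 against 33.7 and 26.4 CPM, and Car9, a carbonic anhydrase gene used as a hypoxia marker, was 7.17 and 9.30 against 6.81 and 6.36 CPM. Both were higher without overlap by narrow margins (0.39, SE 0.24, and 0.34, SE 0.37), and their sign turned on the log2 RPKM and FPKM scales, where the median of all genes was -0.31. Kdm3a, a histone demethylase gene, overlapped between 35.9 and 47.8 CPM. Car12 was 1.07 and 1.39 against 9.38 and 0.888 CPM, so that its log2 fold change of -1.98 (SE 1.01) turned to 0.38 without CD34- replicate 1.

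**Figure D5:**
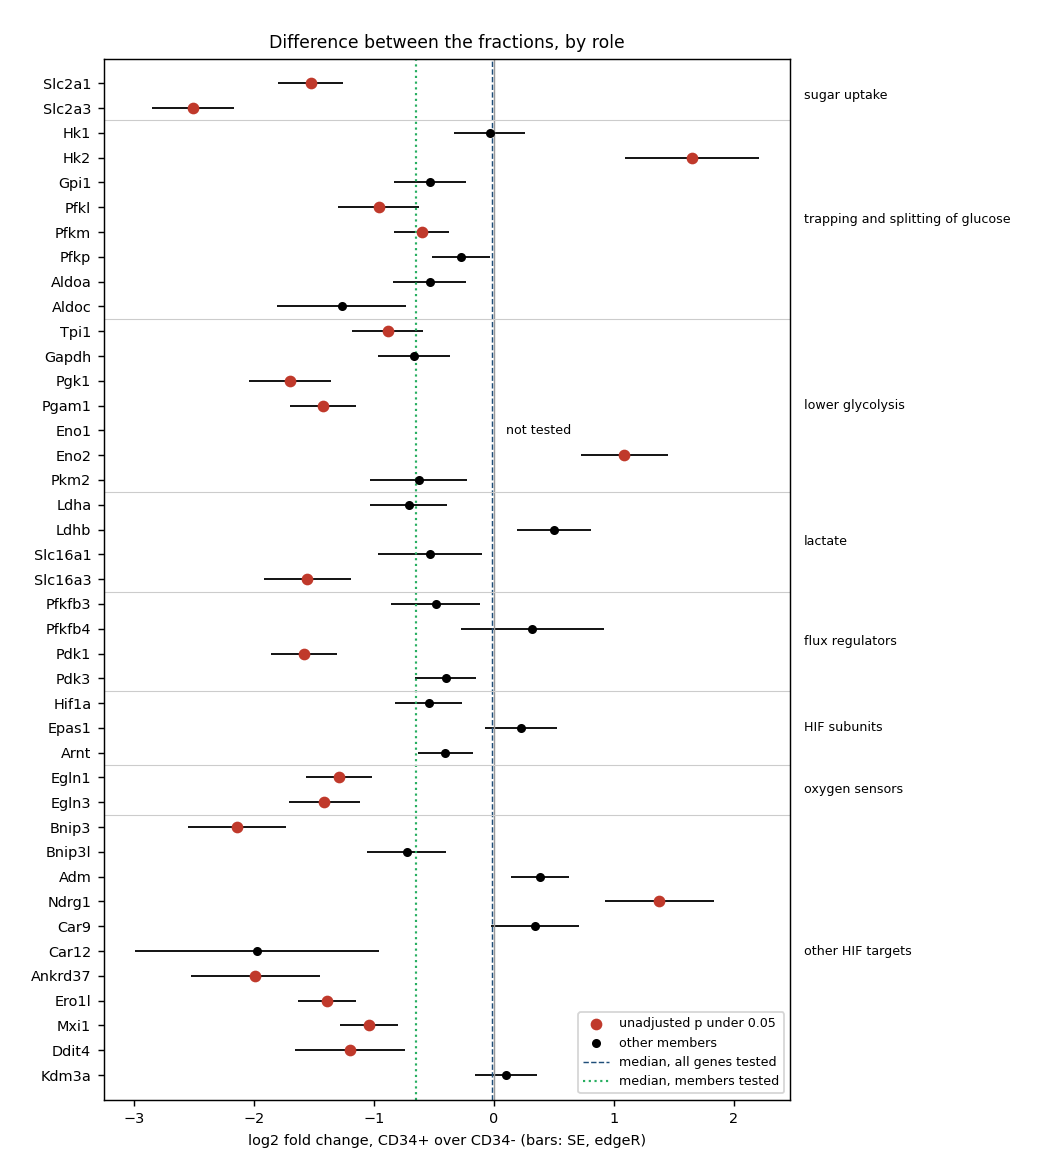
Log2 fold change of CD34+ over CD34- with its SE (edgeR) for the 40 tested genes, grouped by role; red points have an unadjusted p under 0.05. The members' median of -0.65 lies left of that of all genes, -0.02, and Hk2, Ndrg1 and Eno2 lie on the right at 1.65, 1.38 and 1.09.

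The members also varied within a fraction. Among the 37 members with at least 5 CPM on average over the 4 libraries, the higher CD34+ library exceeded the lower by a median of 1.30-fold, against 1.32-fold over the 10520 genes at that level, and for CD34- the medians were 1.25-fold and 1.22-fold. The gap was over 2-fold for 5 of these members in CD34+ (Hk2, Pfkfb4, Slc16a1, Bnip3 and Ddit4) and for 1, Pfkfb3, in CD34-. CD34+ replicate 1 was the higher for Hk2, Pfkfb4 and Ddit4 and the lower for Slc16a1 and Bnip3.

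Of 62 other genes of glycolysis, its branches and the HIF response, all were found and 58 tested. Of these 34 (58.6%, against 51.3% of all genes tested) had a negative and 24 a positive log2 fold change (median -0.13), and 0 passed at an adjusted p of 0.05. At an unadjusted p of 0.05 (edgeR) 10 were lower and 2 higher, which is 17.2% and 3.45% against 6.65% and 9.81% of all genes. Among those with a mean of at least 5 CPM, the smallest p belonged to P4ha1, encoding the catalytic subunit of collagen prolyl hydroxylase, at 137 and 179 CPM in CD34+ and 455 and 468 CPM in CD34- replicates 1 and 2 (log2 fold change -1.53, SE 0.29, adjusted p = 0.173, edgeR). Next came the transferrin receptor gene Tfrc at 8.33 and 5.71 against 26.6 and 17.4 CPM and the collagen lysyl hydroxylase gene Plod1 at 109 and 126 against 288 and 230.4 CPM. Fam162a, encoding a mitochondrial protein, was 38.0 and 45.4 against 91.2 and 73.4 CPM, and Vhl, whose product marks hydroxylated HIF alpha subunits for destruction, was 18.7 and 24.2 against 39.5 and 42.7 CPM. All 5 were lower in CD34+ without overlap. The 2 that were higher are named because of their values: Arnt2, encoding a relative of Arnt, was low at 3.003 and 1.61 against 0.454 and 0.410 CPM (log2 fold change 2.41, SE 0.62, adjusted p = 0.206, edgeR), and Eno3, the muscle-type enolase gene, was 15.98 and 12.5 against 8.40 and 6.08 CPM (1.00, SE 0.35, adjusted p = 0.260).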

How the data were processed

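Counts of reads per gene, whole numbers that are not normalized, were deposited for 22609 genes, together with RPKM (reads scaled to gene length and a library total) by the authors for the same genes and bias-adjusted FPKM by the authors, a unit named per the file headers and table names. Build mm9 and the tools TopHat2, Bowtie2, edgeR and HTSeq come from the submitters' processing notes; for versions, annotation, strand setting and the handling of reads that fit several genes, nothing is given in the sources used here. Per the labels, RNA was amplified with MessageAmp, so amplified copies are not independent molecules. Each table also has 14 more sample columns, which fit no label of the series; they were left unused.

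Counts were tested with edgeR 4.0.16 (R 4.3.3; TMM, filterByExpr, quasi-likelihood F test, group as the only term, 4 libraries, 2 residual degrees of freedom plus 4.17 from moderation) and adjusted by Benjamini-Hochberg; all tests are two-sided and the SE is the log2 fold change over the square root of F. The scripts were tested on simulated data. Alternatives were DESeq2 1.42.0, its size factors, column totals, other filters, limma 3.58.1 on log2 RPKM or FPKM, a replicate block and leaving out each library; the FPKM fit was added after seeing the data. Members, lists and tests were chosen with earlier results of these data known. Every member is named; by rule, values per library are given for up to 16 members of smallest p, the HIF subunits and up to 4 members of the opposite direction, and beyond that rule for further members. Of the 41 symbols 39 matched a current RefSeq symbol and 2 a synonym. Without the strand setting, overlapping genes cannot be told apart, and genes with near-identical copies, such as Eno1 and Gapdh, are uncertain.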

Additional observations from a re-analysis of the deposited data

How the results depend on the processing

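Direction held in every alternative for 31 of the 40 tested members. It turned for 9: Adm, Car12, Car9, Epas1, Hk1, Kdm3a, Ldhb, Pfkfb3 and Pfkfb4. On log2 RPKM + 1, where the median of all genes was -0.31, the log2 fold changes were -0.31 for Pfkfb4, -0.026 for Adm, -0.051 for Car9, -0.17 for Epas1 and -0.28 for Kdm3a. On log2 RPKM + 0.1 (median of all genes -0.42) they were -0.40, -0.027, -0.078, -0.19 and -0.32 in the same order. On log2 FPKM + 1 (median -0.31) they were -0.57, -0.015, -0.17, -0.19 and -0.23, with -0.077 for Ldhb. Relative to these medians Adm, Car9, Epas1, Kdm3a and Ldhb lay on the higher side. Leaving out 1 library gave ranges of -1.0 to 0.98 for Pfkfb4, -0.12 to 0.26 for Kdm3a, -0.35 to 0.19 for Hk1, -0.070 to 0.50 for Epas1, -0.87 to 0.0068 for Pfkfb3 and -2.83 to 0.38 for Car12. For 18 of the 40 members, these 6 among them, the log2 fold change turned or moved by over 1.5 times in at least 1 of these fits; the others were Hk2, Gpi1, Pfkp, Gapdh, Eno2, Pkm2, Ldhb, Slc16a1, Bnip3l, Ndrg1, Car9 and Ddit4.

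The members' median of -0.65 was -0.75 with no filter (median of all genes 0.17), -0.97 on log2 RPKM + 1, -1.07 on log2 RPKM + 0.1 and -1.08 on log2 FPKM + 1, and lay between -0.87 and -0.60 when 1 library was left out. At an unadjusted p of 0.05, 27 members were lower and 1 higher on log2 RPKM + 1, 26 and 0 on log2 FPKM + 1, and 0 higher on log2 RPKM + 0.1 (limma); without 1 library 0 to 4 were higher. At an adjusted p of 0.05, DESeq2 called 396 genes higher and 180 lower, with 2 and 10 members. edgeR with no filter called 194 and 137, with 10 members lower, the 10 that DESeq2 called. It called 2 genes higher with scaling by column totals and 2 with a filter of 1 CPM, and limma on log2 RPKM + 0.1 called 20 higher and 31 lower; the cause was not tested. The block by replicate number gave edgeR calls of 39 genes higher and 23 lower, with 1 member, Slc2a3, lower. Deviations from the group means of same-numbered libraries correlated at 0.24 over 13875 genes, but no label says that a number marks shared animals. With 1 library left out, the fit has 1 residual degree of freedom and assumes that the lone library varies like the other group. Eno1, Aldoc, Car9, Car12 and Ankrd37 lay under 10 CPM in each library, which limits their precision.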
